A study of Homo sapiens with 8 samples.

Results

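The genes described here are 230 human zinc finger genes with a numbered ZNF symbol and an average level of at least 10 CPM (read counts that the authors scaled to a common library size) over 8 RNA-Seq libraries of MDA-MB-231 cells. They make up 46.6% of the 494 numbered ZNF genes among the 17649 genes in the table and were selected on average level over both groups, not on a difference between groups. MDA-MB-231 is an established, estrogen receptor–negative breast cancer cell line. The 4 libraries control 1 to control 4 came from cells that received PBS, and the other 4 (called NCML in the labels and CML here) came from cells that received 1 µM N-carboxymethyllysine. CML is an advanced glycation end product, a modified lysine that arises from contact with reactive sugars. Both groups were kept for 48 hours in T25 flasks in low-glucose medium, and no group carried a genetic change made by the study. The labels do not say whether the 4 libraries of a group were separate cultures, so every p-value measures the spread between these libraries, which may be technical.

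Zinc finger proteins of the C2H2 type read DNA through repeated finger domains, each holding a zinc ion between paired cysteines and histidines. Many of them carry a KRAB domain at the N-terminus, which recruits the corepressor TRIM28 (KAP1) and, through it, the histone methyltransferase SETDB1, so that the bound locus is packed into heterochromatin. KRAB zinc finger genes expanded in clusters on chromosome 19 and are best known for silencing retroelements, while ZNF genes without KRAB include transcriptional activators, chromatin complex subunits and proteins that bind RNA or the cytoskeleton.

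The question was whether exposure to CML changed the transcript levels of these genes, and how far the libraries of 1 group differed among themselves. Of the 230 genes, 1 passed the threshold, ZNF608, which fell with CML. Otherwise the CML and control levels of the family lay close together, with a median log2 difference of 0.0073, and 182 of the 230 genes differed by less than 0.1 on the log2(CPM + 1) scale. Libraries of the same group also differed, above all by a shift of GC-poor against GC-rich transcripts in both replicate 4 libraries, which was seen over all genes as well as in this family.

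The defining markers of the labelled cell line were present. The mesenchymal and basal genes VIM, AXL, MSN, EGFR, CD44 and CAV1 had mean levels from 152 to 4109 CPM. The luminal genes PGR, CDH1, GATA3 and ERBB3 lay between 0.021 and 6.85 CPM, the leukocyte genes PTPRC and CD14 at 0.377 and 1.14 CPM, and the endothelial genes PECAM1 and VWF at 3.21 and 0.415 CPM (ESR1 was not analysed here). The libraries held between 16161803 and 18954732 estimated reads each, so that 1 read was worth 0.0535 to 0.0622 CPM. The zinc finger genes together took 0.693% to 0.737% of the CPM of a library.

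Most of these genes were expressed at a low level. Their mean levels ran from 10.1 to 193 CPM with a median of 21.6 CPM, 104 lay under 20 CPM and 5 reached 100 CPM. The genes just inside the threshold were ZNF689, ZNF350 and ZNF70 at 10.06, 10.09 and 10.11 CPM, and those just outside were ZNF141, ZNF618 and ZNF71 at 9.88, 9.84 and 9.78 CPM. The 264 numbered ZNF genes under the threshold had a median of 3.80 CPM, 55 of them lay under 1 CPM and 13 were listed at 0 in every library.

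The 10 genes with the highest levels were mostly not KRAB repressors. ZNF664 had a mean of 193 CPM, with 189, 187, 199.995 and 201.5 CPM in the control libraries and 191, 186, 186 and 206 CPM in the CML libraries. ZNF146, whose protein consists almost wholly of zinc fingers, had 148, 153, 156 and 170 CPM in the controls and 161, 159, 160 and 166 CPM with CML. ZNF24, a SCAN domain factor, had 121, 121, 128 and 132 CPM in the controls and 122, 125, 132 and 142 CPM with CML. In all 3 genes the groups overlapped, and replicate 4 was the highest library of both groups. ZNF638, a nuclear protein that works with the HUSH complex in silencing unintegrated retroviral DNA, averaged 126 CPM. ZNF207 (BuGZ), which binds microtubules and the checkpoint protein BUB3, averaged 105 CPM. ZNF185, a LIM domain protein of the actin cytoskeleton, averaged 99.2 CPM, and ZNF217, an oncogene amplified in some breast cancers, 93.0 CPM. ZNF106, an RNA-binding protein, averaged 87.6 CPM, ZNF76, a paralogue of ZNF143, 82.1 CPM and ZNF621 81.0 CPM. ZNF621 was the only one of these 10 in which a KRAB box was found. Per length, ZNF146 and ZNF664 were the highest at 47.6 and 44.8 CPM per kb of transcript, followed by the ribosome biogenesis factor ZNF622 at 32.8 CPM per kb, and the median of the 230 genes was 5.20 CPM per kb.

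Translation of the reference coding sequences gave a protein for 226 of the 230 genes. A KRAB A box was found in 127 of these proteins and not in 99, and the median number of C2H2 fingers was 12 with the box and 7 without it. No C2H2 finger was found by the pattern in 5 proteins (ZNF185, ZNF330, ZNF720, ZNF839 and ZNF862), and the most in 1 protein was 36. Chromosome 19 held 89 of the 230 genes (38.7%), against 6.24% of all genes of at least 10 CPM, and 74 of the 88 translated proteins from chromosome 19 had a KRAB box. Genes with the box had a median of 18.2 CPM and a highest level of 81.0 CPM, and those without it a median of 29.1 CPM and a highest level of 193 CPM. The transcripts were poor in GC, with a median of 43.3% against 47.3% for all genes of at least 10 CPM.

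Promoter sequence was at hand for 196 of the 230 genes, as a window of 300 bases that lies mostly before the start site, from RefSeq (GRCh38.p14). Short motifs were counted on both strands, and they were picked after the sequences had been seen. CCGGAAG, which holds the core bound by ETS factors, occurred in 41.3% of the zinc finger promoters, against 21.6% of the other protein-coding promoters of genes of at least 10 CPM and 10.7% of all 27305 promoters. TCCCAGAA occurred in 10.7% of the zinc finger promoters, in 2.56% of the other expressed promoters and in 2.78% of all promoters, and its share was 15.3% with a KRAB box and 4.82% without. The GC box core GGGCGG was found in 64.8% of the zinc finger promoters and 73.0% of the others, the E-box CACGTG in 6.12% and 11.2%, the CRE TGACGTCA in 5.61% and 3.54%, and TATAAA in 2.04% and 4.94%. The median log2 difference between CML and control was 0.0045 for the 81 genes with CCGGAAG and 0.014 for those without it, and for TCCCAGAA it was 0.016 with and 0.0069 without. A match is a string of letters and not a shown binding site. Promoters of 3 of the most abundant genes are printed to show these strings in place, on the strand of the gene with matches in either direction in capitals. ZNF24 (chr18:35344371-35344670, minus strand) held both, ZNF638 (chr2:71331532-71331831, plus strand) held CCGGAAG in reverse and ZNF146 (chr19:36214856-36215155, plus strand) held TCCCAGAA in reverse. The ZNF146 window, unlike the others printed, lay wholly inside the gene as placed by RefSeq (chr19:36214723-36238768).
ZNF24: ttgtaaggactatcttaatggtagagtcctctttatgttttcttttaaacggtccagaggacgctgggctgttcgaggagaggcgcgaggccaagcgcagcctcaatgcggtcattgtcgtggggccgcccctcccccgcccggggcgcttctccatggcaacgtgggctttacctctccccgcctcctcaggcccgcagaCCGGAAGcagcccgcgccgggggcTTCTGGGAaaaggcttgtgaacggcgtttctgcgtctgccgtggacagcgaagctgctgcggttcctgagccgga
ZNF638: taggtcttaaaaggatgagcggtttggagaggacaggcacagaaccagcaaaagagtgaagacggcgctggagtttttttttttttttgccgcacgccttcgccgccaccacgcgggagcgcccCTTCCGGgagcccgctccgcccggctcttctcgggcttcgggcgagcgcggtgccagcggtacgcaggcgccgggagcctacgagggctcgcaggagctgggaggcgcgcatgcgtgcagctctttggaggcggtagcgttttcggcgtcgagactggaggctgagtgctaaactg
ZNF146: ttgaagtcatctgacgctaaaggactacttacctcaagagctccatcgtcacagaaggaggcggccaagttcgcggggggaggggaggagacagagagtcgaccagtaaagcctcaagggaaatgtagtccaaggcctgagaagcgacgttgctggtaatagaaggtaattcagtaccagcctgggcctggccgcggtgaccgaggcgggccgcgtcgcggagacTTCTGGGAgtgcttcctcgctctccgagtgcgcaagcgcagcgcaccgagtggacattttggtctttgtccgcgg

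ZNF608 (chr5:124636915-124748824 in GRCh38.p14), a paralogue of ZNF609, had 17.5, 16.1, 17.2 and 16.2 CPM in the control libraries and 14.5, 13.5, 13.3 and 12.9 CPM in the CML libraries. All 4 CML values lay under all 4 control values, and they rested on 208 to 293 estimated reads. The means were 16.7 CPM ± 0.68 (SD, n = 4) and 13.6 CPM ± 0.68 (SD, n = 4), a log2 difference of -0.28 (SE 0.046) with an adjusted p of 0.165 by limma with Benjamini-Hochberg adjustment over all genes, under the FDR of 0.3 that the study used for this experiment and above 0.05. This was 1 of 230 genes (0.435%), where 0.895% of all genes tested passed in either direction and 0.221% passed as lower with CML. In bulk RNA, fewer cells with the transcript and less transcript in each cell cannot be told apart. At an FDR of 0.05 limma called 0 of the 230 genes and 0% of all genes. Leaving out 1 library at a time kept the log2 difference between -0.32 and -0.26, but the adjusted p ran from 0.172 to 0.434 and stayed under 0.3 in 3 of 8 fits, those without control 4, CML 1 or CML 4. The SE depended on the low genes in the fit. With all libraries but without genes under a mean of 1 CPM, the SE for ZNF608 was 0.070 (limma adjusted p = 0.156). Its paralogue ZNF609 had a higher level and overlapping groups, with 69.8, 71.7, 77.0 and 74.0 CPM in the controls and 78.5, 75.01, 68.6 and 69.6 CPM with CML. The ZNF608 promoter is printed because ZNF608 was the gene that passed. It covers chr5:124748775-124749074 on the minus strand and held neither CCGGAAG nor TCCCAGAA.
ZNF608: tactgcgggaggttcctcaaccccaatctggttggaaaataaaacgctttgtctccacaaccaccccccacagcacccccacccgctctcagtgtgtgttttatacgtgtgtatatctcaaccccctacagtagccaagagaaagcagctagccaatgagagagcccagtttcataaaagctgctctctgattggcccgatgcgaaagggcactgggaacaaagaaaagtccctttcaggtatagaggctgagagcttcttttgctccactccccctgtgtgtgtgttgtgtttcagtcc

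**Figure D1:**
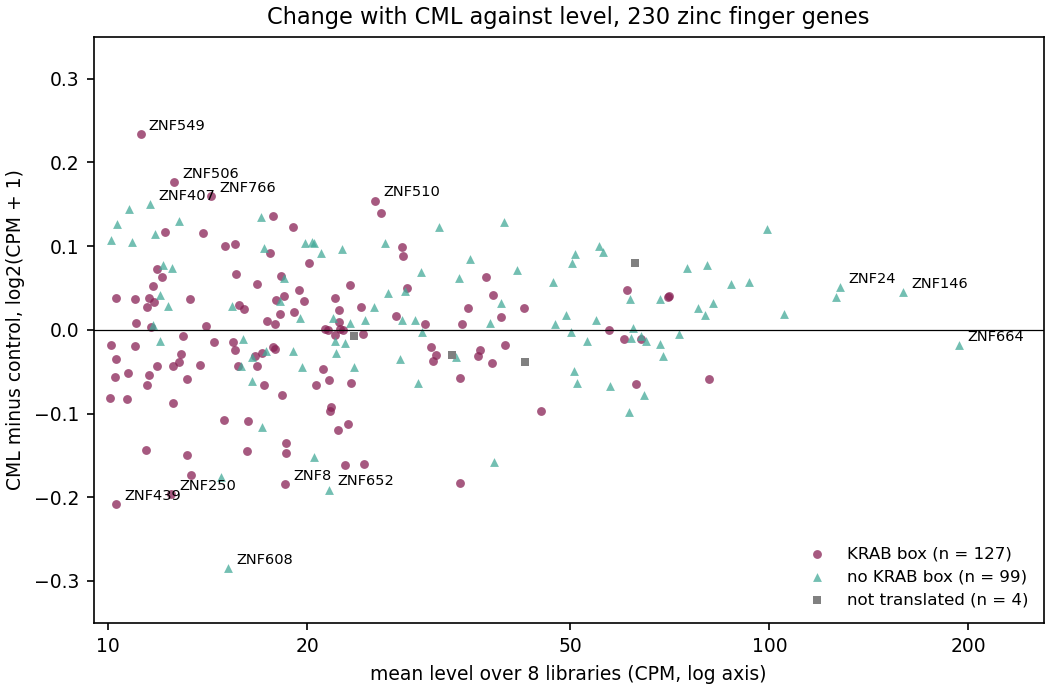
Each point is 1 of the 230 zinc finger genes, with its mean level over 8 libraries on a log axis (CPM) against the difference of CML minus control in mean log2(CPM + 1). Circles have a KRAB box, triangles do not and squares were not translated. ZNF608 is the lowest point at -0.28 and ZNF549 the highest at 0.23, and the genes of over 100 CPM lie near 0.

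The other large differences belonged to genes of low level and did not pass the threshold. ZNF549, a KRAB gene on chromosome 19, had 9.96, 9.05, 10.7 and 11.2 CPM in the controls and 12.5, 11.98, 11.8 and 12.4 CPM with CML, without overlap, a log2 difference of 0.23 (SE 0.065, limma adjusted p = 0.422, and 0.243 without control 4). The KRAB gene ZNF439 had 9.004, 10.4, 12.3 and 12.8 CPM in the controls and 9.38, 10.9, 9.69 and 7.90 CPM with CML, a log2 difference of -0.21. ZNF250, also a KRAB gene, had 12.8, 12.4, 13.7 and 14.5 CPM in the controls and 11.8, 12.7, 12.01 and 9.71 CPM with CML, a log2 difference of -0.20. In ZNF439 and ZNF250 the groups overlapped, control 4 was the highest and CML 4 the lowest of the 8 libraries, and the differences were -0.13 and -0.12 without CML 4 and -0.068 and -0.083 without both replicate 4 libraries. ZNF652 had 21.3, 22.6, 24.3 and 24.1 CPM in the controls and 20.8, 21.7, 18.5 and 19.4 CPM with CML, a log2 difference of -0.19. ZNF8 had 18.1, 20.3, 20.3 and 19.97 CPM in the controls and 17.1, 14.4, 18.1 and 19.6 CPM with CML, a log2 difference of -0.18, and -0.10 without CML 2. Its reads were not whole numbers in any of the 8 libraries. In both genes the groups overlapped. Among the genes with higher CML means, ZNF506 had log2 difference 0.18, ZNF766 0.16, ZNF510 0.15 and ZNF407 0.15, with adjusted p-values from limma of 0.693 to 0.868 and overlapping groups in all 4. Without control 1 the difference was 0.099 for ZNF506 and 0.089 for ZNF766, and for ZNF766 it was 0.10 without CML 2 and 0.25 without CML 3.

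**Figure D2:**
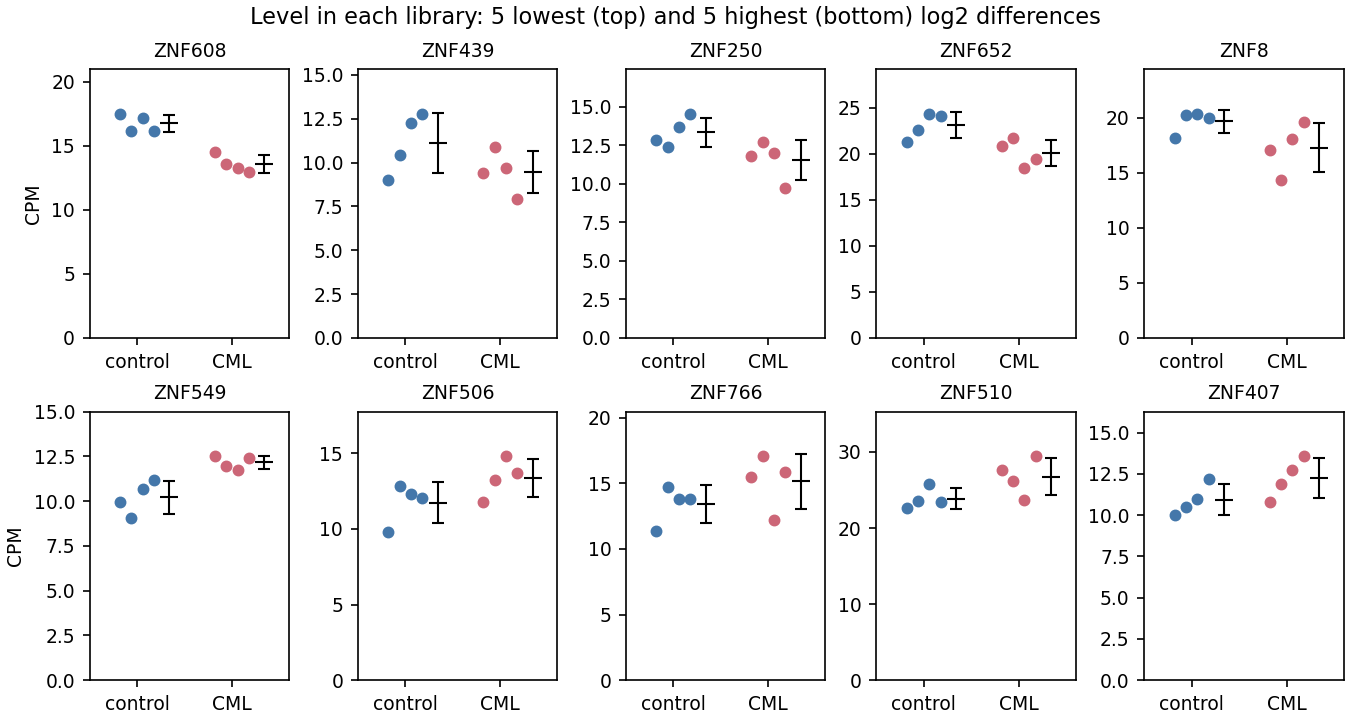
Level in CPM of the genes with the 5 lowest (top row) and 5 highest (bottom row) log2 differences, each library as a point (control blue, CML red) with the mean and SD (n = 4) as black bars. The groups are apart in ZNF608 and ZNF549 and overlap in the other 8 genes.

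Without overlap between the groups were 9 of the 230 genes (3.91%), 5 higher and 4 lower with CML, where 3.78% of all genes tested did not overlap. The KRAB gene ZNF251 had 35.3, 34.8, 35.9 and 38.8 CPM in the controls and 32.0, 31.2, 34.2 and 29.7 CPM with CML, a log2 difference of -0.18 (limma adjusted p = 0.422). ZNF267 had 16.9, 16.2, 16.9 and 17.4 CPM in the controls and 19.4, 18.2, 17.9 and 19.04 CPM with CML, a log2 difference of 0.14 (limma adjusted p = 0.400, and 0.280 without control 4). ZNF337 and ZNF302 were at -0.17 and -0.16, and ZNF697, ZNF25 and ZNF792 at 0.13, 0.08 and 0.06 on the same scale, all above an adjusted p of 0.3. At an unadjusted p under 0.05 there were 16 of the 230 genes (6.96%), 9 higher and 7 lower, against 7.66% of all genes tested. Both shares lay close to those of all genes. Of the 9410 genes of at least 10 CPM, 331 were higher and 112 lower with CML without overlap. In that set 8.92% were at an unadjusted p under 0.05 by limma.

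Subgroups of the family were described side by side. With a KRAB box, 0 of 127 genes passed the FDR of 0.3, 4 were higher and 4 lower at an unadjusted p under 0.05 by limma, and the median log2 difference was -0.0061 with 60 genes above 0. Without the box, 1 of 99 genes passed (ZNF608), 5 were higher and 3 lower at an unadjusted p under 0.05, and the median was 0.019 with 63 genes above 0. Those at an unadjusted p under 0.05 were 6.30% with the box and 8.08% without it. This share was 7.66% of all genes tested and 8.92% of all genes of at least 10 CPM. Of all genes tested, 0.895% passed the FDR of 0.3. The difference between genes with and without the box was not tested. The median was 0.0035 for the 89 genes on chromosome 19 and 0.0077 for the 141 on other chromosomes, and 0.0011 for the 89 genes with 12 or more fingers and 0.0077 for the 137 with fewer. All genes tested had a median of 0.0066 and all genes of at least 10 CPM of 0.018. Of the 264 numbered ZNF genes under 10 CPM, 1 passed, as lower with CML. In that set 7 were higher and 10 lower at an unadjusted p under 0.05 by limma (6.44%). Among related symbols, 0 of 17 ZSCAN, 0 of 7 ZKSCAN, 0 of 37 ZBTB and 0 of 19 ZFP genes passed by limma, with 2, 0, 2 and 0 of them at an unadjusted p under 0.05.

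By role, proteins of RNA, the ribosome or the cytoskeleton were 12 listed genes, of which 11 belonged to the 230, and 0 passed by limma (2 higher at an unadjusted p under 0.05, ZNF622 and ZNF185). The 2 at an unadjusted p under 0.05 were 18.2% of the 11, against 7.66% of all genes tested, a share of few genes. The median log2 difference of the 11 was 0.028. ZNF622, a factor in maturation of the large ribosomal subunit, had 51.6, 56.9, 53.6 and 54.3 CPM in the controls and 56.8, 57.2, 58.4 and 58.7 CPM with CML, a log2 difference of 0.09 (limma adjusted p = 0.489). ZNF185 had 97.7, 87.5, 99.6 and 95.3 CPM in the controls and 99.2, 109, 104 and 102 CPM with CML, a log2 difference of 0.12 (limma adjusted p = 0.592). In both genes the CML mean was higher and the groups overlapped. ZNF598, the ubiquitin ligase that marks collided ribosomes, had a transcript of 64.9% GC and had 51.8, 55.0, 43.9 and 39.0 CPM in the controls and 52.9, 47.2, 49.6 and 40.2 CPM with CML, lowest in replicate 4 of both groups.

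Factors with described DNA targets or chromatin complexes were 27 listed genes, of which 22 belonged to the 230. The gene that passed was ZNF608 (1 lower, 0 higher), where 0.895% of all genes tested passed, and the median of the 22 was 0.028. At an unadjusted p under 0.05 by limma there were 2 higher and 1 lower (13.6%), against 7.66% of all genes tested. ZNF143, which binds many promoters and sites of chromatin looping, had 24.7, 21.9, 26.5 and 26.9 CPM in the controls and 24.3, 23.6, 26.3 and 27.6 CPM with CML, in overlapping ranges. ZNF217 had 90.0, 90.3, 94.0 and 90.3 CPM in the controls and 95.5, 91.4, 95.8 and 96.8 CPM with CML, a log2 difference of 0.06 (limma adjusted p = 0.621). ZNF148 had 51.3, 51.0, 54.1 and 56.6 CPM in the controls and 56.2, 57.9, 55.9 and 58.5 CPM with CML, a log2 difference of 0.10 (limma adjusted p = 0.565). In these 3 genes the groups overlapped. ZNF410, known for its control of the chromatin remodeler gene CHD4, averaged 61.5 CPM, and CHD4 averaged 201.6 CPM ± 8.32 (SD, n = 4) in the controls and 200.01 CPM ± 4.08 (SD, n = 4) with CML.

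Of 16 listed repressors of retroelements, 8 belonged to the 230, all with a KRAB box, and 0 passed by limma, also at an unadjusted p under 0.05. Over all genes tested, 0.895% passed and 7.66% were at an unadjusted p under 0.05. The median of the 8 was -0.023, with 2 of 8 above 0. ZNF600 was the exception among the fits without 1 library, since it passed as lower without control 1 (limma adjusted p = 0.269). ZNF91, which represses SVA elements, lay at 10.2, 8.75, 11.0 and 11.9 CPM in the controls and 9.67, 9.84, 10.7 and 10.3 CPM with CML. ZNF468 had 53.5, 57.5, 57.6 and 60.2 CPM in the controls and 56.6, 58.0, 55.1 and 59.0 CPM with CML, and its reads were not whole in any of the 8 libraries. Both genes had overlapping groups. Reads that were not whole, which mark genes whose reads may have been split with copies or overlapping genes, were seen in at least 1 library for 54 of the 230 genes and in all 8 libraries for 16, so the levels of these genes are uncertain. By library, 81.7% to 87.8% of the values of the 230 genes were whole, against 85.1% to 86.1% of all values above 0. None of the 54 genes passed by limma, and 1 was under an unadjusted p of 0.05 (1.85%, against 7.66% of all genes tested), ZNF302.

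Partners of the KRAB proteins were measured at higher levels. TRIM28 had 294, 279, 296 and 248 CPM in the controls and 289, 310, 296 and 266 CPM with CML, lowest in replicate 4 of both groups, with a log2 difference of 0.06. SETDB1 averaged 61.1 CPM ± 2.77 (SD, n = 4) in the controls and 60.5 CPM ± 1.73 (SD, n = 4) with CML. Of the 20 listed corepressor and HUSH genes tested, 1 passed by limma (5%, against 0.895% of all genes), DNMT1, the maintenance DNA methyltransferase. It had 161, 160.3, 154 and 152 CPM in the controls and 171, 181, 177 and 168 CPM with CML, without overlap and higher with CML by 0.15 on the log2 scale (limma adjusted p = 0.251). This call was lost in 6 of the 8 fits without 1 library, those without control 1, 2 or 3 or CML 1, 2 or 3, where the adjusted p ran from 0.339 to 0.460. The log2 difference stayed between 0.13 and 0.17 in the 8 fits. The call was also lost with libraries centred on their median (difference 0.13, adjusted p = 0.324) or quantile normalized (difference 0.13, adjusted p = 0.475), and the limma adjusted p was 0.0079 after the GC and length correction described below.

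Libraries of the same group differed in the median level of the 230 genes. Taking each gene's mean over the 8 libraries as 0, the median deviation of the 230 genes was -0.059, -0.030, 0.0098 and 0.076 log2 units in control 1 to control 4 and -0.0042, 0.019, -0.017 and 0.032 in CML 1 to CML 4. The same median over all genes of at least 10 CPM stayed between -0.024 and 0.022. In control 4, 74.3% of the zinc finger genes lay above their own mean, against 58.0% of all genes of at least 10 CPM, and in control 1 these shares were 29.1% and 41.0%. Control 4 was the highest of the 8 libraries for 87 of the 230 genes and the lowest for 20. By GC content the libraries split further. In control 4 the median deviation was 0.091, 0.12 and 0.090 in the 3 lower of 4 equal bins of GC and -0.059 in the highest bin (49.7% to 70.4% GC). In CML 4 these were 0.078, 0.051, 0.027 and -0.041. In the other 6 libraries the lowest GC bin lay below 0, farthest in control 1 at -0.083, where the highest bin lay at 0.0074. After the GC and length correction described below, the median deviation was -0.025, -0.020, 0.0069 and 0.031 in control 1 to control 4. In CML 1 to CML 4 it was then -0.0010, 0.022, -0.0069 and 0.0043.

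**Figure D3:**
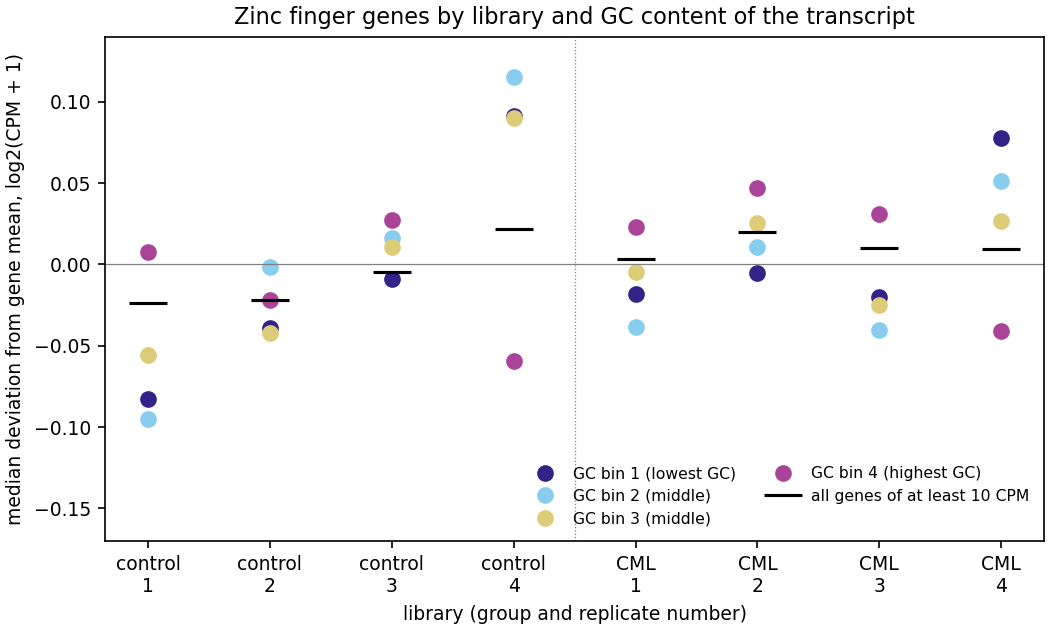
Median deviation from the gene mean, in log2(CPM + 1), of the zinc finger genes in each library, by bin of transcript GC content (57 or 58 genes each, coloured points), with all genes of at least 10 CPM as black bars. Control 4 and CML 4 have the lowest GC bin above 0 and the highest GC bin below it.

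Across the 230 genes the Spearman correlation of the deviation with GC content was -0.458 in control 4 and -0.484 in CML 4, and 0.429 in control 1. These are descriptions over genes that share the same libraries. The same direction held beyond the family: over 12928 genes the deviation changed by -0.085 log2 units per 10 percentage points of GC in control 4, by -0.071 in CML 4 and by 0.068 in control 1. Both replicate 4 libraries lay above the other 6 for 42 zinc finger genes (18.3%, median GC 40.4%) and below them for 17 (7.39%, median GC 61.8%), against 16.4% (median GC 40.7%) and 13.2% (median GC 60.6%) of all genes of at least 10 CPM. ZNF397 had 17.7, 17.1, 19.8 and 22.2 CPM in the controls and 17.6, 16.96, 18.8 and 22.03 CPM with CML. ZNF791 had 61.2, 62.5, 63.2 and 69.6 CPM in the controls and 60.1, 60.6, 64.0 and 69.9 CPM with CML. ZNF770, whose transcript has 36.3% GC, had 73.0, 76.9, 78.8 and 84.6 CPM in the controls and 78.4, 82.4, 81.4 and 88.5 CPM with CML. These 3 genes were highest in replicate 4 of both groups. ZNF358, with 69.2% GC, had 38.2, 33.6, 36.3 and 27.7 CPM in the controls and 34.5, 33.8, 36.7 and 27.5 CPM with CML. ZNF581, with 61.8% GC, had 33.1, 28.7, 30.5 and 27.1 CPM in the controls and 31.9, 29.2, 31.4 and 26.6 CPM with CML. These GC-rich transcripts were lowest in replicate 4 of both groups, and the reads of ZNF358 and ZNF581 were not whole in 6 and 3 libraries.

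**Figure D4:**
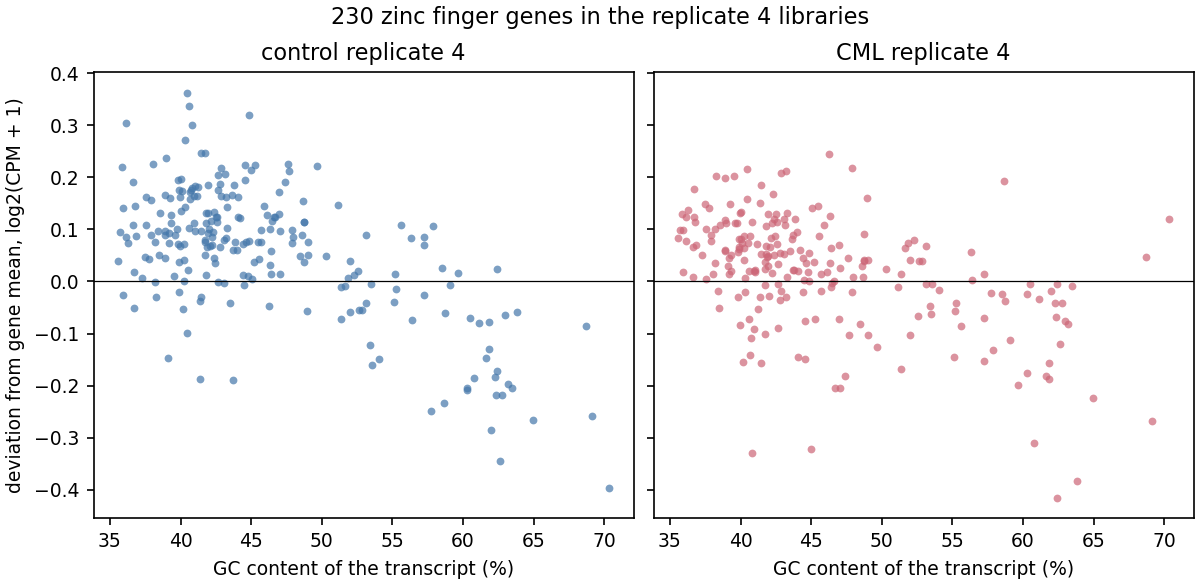
GC content of the transcript (%) against the deviation from the gene mean in log2(CPM + 1) for the 230 zinc finger genes, in control replicate 4 (left) and CML replicate 4 (right). The points fall from left to right, with Spearman correlations of -0.458 and -0.484.

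Tested as a factor beside the group, the replicate number changed 0 of the 230 genes and 0% of all genes at an FDR of 0.3 by limma's F-test. At an unadjusted p under 0.05 there were 32 zinc finger genes (13.9%), against 12.1% of all genes. Of all genes of at least 10 CPM it was 16.4%. The 32 were led by ZNF397 (adjusted p = 0.3499 by the F-test), ZNF791, ZNF770, ZNF358 and ZNF581. The count depended on which low genes entered the fit. With genes under a mean of 1 CPM left out, 33 of the 230 (14.3%) passed the FDR of 0.3, against 15.4% of all genes kept. In that fit 36 of the 230 (15.7%) were at an unadjusted p under 0.05, against 16.2% of the 13047 genes kept. With nearly the same filter and a linear correction of each library for GC content and length, 0 of the 230 and 0.348% of the 12928 genes kept passed the FDR of 0.3 by limma, and 6 of the 230 (2.61%) were at an unadjusted p under 0.05, against 5.84% of those genes.

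The comparison of CML with control also moved with these libraries. Leaving out genes under a mean of 1 CPM kept the count at 1 of the 230 genes (0.435%), against 1.08% of the genes kept. With the GC and length correction on top of that filter, 9 of the 230 genes passed the FDR of 0.3 (3.91%), against 5.92% of the 12928 genes kept, namely ZNF185, ZNF549 and ZNF697 as higher and ZNF121, ZNF251, ZNF302, ZNF608, ZNF652 and ZNF83 as lower with CML. Without control 4, 11 passed (4.78%), against 3.91% of all genes, with ZNF146, ZNF148, ZNF197, ZNF239, ZNF267, ZNF330, ZNF507, ZNF518B, ZNF549 and ZNF697 higher and ZNF608 lower with CML. Without both replicate 4 libraries, a fit added after the data had been seen, ZNF608 alone of the 230 genes passed (log2 difference -0.28, limma adjusted p = 0.259), against 1.82% of all genes. What set control 4 and CML 4 apart was not tested.

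Replicate spread was somewhat larger for zinc finger genes than for all genes of at least 10 CPM, but not than for all genes tested. Pooled over both groups, the median SD was 0.099 for the 230 genes and 0.099 for all genes tested. It was 0.077 for all genes of at least 10 CPM. The median SD on the log2(CPM + 1) scale was 0.102 in the controls and 0.086 with CML, against 0.079 and 0.065 for all genes of at least 10 CPM. At matched level the gap was smaller. Between 10 and 20 CPM the 104 zinc finger genes had median SDs of 0.119 and 0.107, against 0.113 and 0.103 for all 1839 genes, and between 20 and 50 CPM the 83 had 0.104 and 0.075 against 0.088 and 0.074. Without replicate 4 the median SD of the 230 genes was 0.073 in the controls and 0.069 with CML, and that of all genes of at least 10 CPM was 0.063 and 0.050. The SD was larger in the controls than with CML for 147 of the 230 genes (63.9%), against 64.9% of all genes of at least 10 CPM. The median standard error of a log2 difference was 0.068 and the median size of a difference 0.044.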

How the data were processed

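RNA-Seq was performed on 4 control and 4 CML libraries, grouped and numbered by their titles. The authors deposited CPM values, 1 column per library and 17681 rows with Ensembl identifiers and symbols. The submitters' processing notes name edgeR and hg38. The paper's supplement describes TMM-scaled CPM for the tumors and, in its pathway analysis, for xenografts and cell lines as well. For the tumors it names the aligner Tophat and a genome build other than hg38. The aligner, counter and annotation for this experiment are not given in the sources used here. NextSeq and HiSeq instruments are both given by the labels, and the paper's supplement names HiSeq for the CML-exposed cells.

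Rows with the same symbol were averaged (32 symbols, 0 among the zinc finger genes), which left 17649 genes. log2(CPM + 1) values were compared by limma 3.58.1 in R 4.3.3 with a variance trend at FDRs of 0.3 and 0.05 (Benjamini-Hochberg, over the whole table), and the replicate number by limma's F-test with the group as covariate. Fold changes are on the log2(CPM + 1) scale, which understates those of low genes. Dividing by the CPM of 1 read gave estimated reads, and 85.1% to 86.1% of values above 0 lay within 0.02 of a whole number, so no count test was run. SDs and standard errors measure the spread between libraries, and estimated reads bear on counting error only.

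GC content, transcript length, C2H2 fingers and the KRAB A box were taken from the Ensembl-canonical transcripts of GENCODE 44, matched by identifier, the box by a weight matrix built from 265 strict matches, and positions and promoters from RefSeq GRCh38.p14. The design had named RefSeq proteins for fingers and the box. All 230 genes had a GC value. The GC and length correction was a linear fit of each library over 12928 genes of at least 1 CPM. limma was checked on simulated data with noise drawn independently for each gene and library. That check held no shift by GC content shared between genes.

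The 230 genes, the role lists and the tests were chosen with earlier results of these data known. The text names the 10 genes with the highest mean, the 5 largest differences in each direction, genes with an adjusted p under 0.3, the 5 smallest p-values for replicate number, the genes next to the threshold and members of the role lists. Genes without overlap, the other genes with an unadjusted p under 0.05 and those called under an alternative were added after their values were seen.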

Additional observations from a re-analysis of the deposited data

Results flagged for a closer look

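Among 138 groups of 4 libraries tested for a library far from the other 3 by Dixon's test, 4 stood out, where chance gives about 6.9. Control 3 had 94.0 CPM of ZNF217, with 90.0 to 90.3 CPM in the other controls. Control 1 had 18.1 CPM of ZNF8, with 19.97 to 20.3 CPM in the others. CML 2 had 63.1 CPM of the methyltransferase gene SETDB1, with 59.5 to 60.0 CPM in the other CML libraries. Control 4 had 17729519 estimated reads, with 16559915 to 16690412 in the other controls.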

How the results depend on the processing

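Under the alternatives, the number of the 230 genes past the FDR of 0.3 for CML against control was 1 for most settings, 0 with a threshold of 20 CPM for entry, 9 with the GC and length correction (which tested only genes of at least 1 CPM, a filter that alone left 1), 10 with the replicate block and that correction together, and 0 to 11 with each library left out in turn. Without control 1 the gene that passed was ZNF600, not ZNF608. The number of all genes was 158 as reported, 73 with libraries centred on their median, 765 with the GC and length correction (141 with the 1 CPM filter alone), 810 with that correction and the replicate block, 321 without both replicate 4 libraries (chosen after seeing the data) and 20 to 690 with each library left out. For replicate number, 33 and 24 of the 230 genes passed with genes under a mean of 1 CPM or under 0.5 CPM in 2 libraries left out, where 2015 and 1838 of all genes passed. With a pseudocount of 0.1, 79 of all genes passed, 3 with centred libraries, 45 with the GC and length correction (against the 2015 with the 1 CPM filter and no correction, and 0 against 33 of the 230 genes), 1 without both replicate 4 libraries, and 0 to 3 with each library left out (0 for the 230 genes). The cause was not tested. The median log2 difference of the 230 genes lay between -0.0081 and 0.029 with each library left out, and its sign turned with libraries centred on their median (-0.012) and with quantile normalization (-0.0065).

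The replicate numbers were not used as pairs in the main comparison. Over all genes, the correlation of deviations between same-numbered control and CML libraries ran from -0.039 to 0.254, with a mean of 0.087. Between differently numbered libraries it ran from -0.223 to 0.073, with a mean of -0.029. Over the 230 genes, same-numbered libraries ran from 0.081 to 0.379 (mean 0.180) and differently numbered ones from -0.359 to 0.285 (mean -0.058). Control 4 with CML 4 had the highest value in each set, so the numbers were not without shared structure. With the replicate block, 1 of the 230 genes passed, ZNF608 (limma adjusted p = 0.263), and 189 of all genes. Precision was limited by 4 libraries a group and, for low genes such as ZNF439, by reads in the range of 127 to 224.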
